A study of Mus musculus with 4 samples.

Results

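miR-221 and miR-222 are microRNAs (miRNAs), short RNAs that bind messenger RNAs through a seed near their 5′ end and repress them. They were read by 2 of 750 miRNA assays, those named mmu-miR-221 and mmu-miR-222, and no other assay carried either name in another form or species. The pair was chosen by its measured changes between arthritic and non-arthritic mouse synovium, which went opposite ways in the same pools. The values of that contrast are therefore given for both miRNAs as a description, without a test.

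Synovium, the soft lining of joints, came from the region of the tibiotalar joint of C57BL/6J mice. The arthritic group was 2 pools of 10 mice each, taken on day 10 at peak inflammation of serum transfer arthritis, in which serum of arthritic K/BxN mice is given to healthy hosts. The non-arthritic group was 2 pools of 3 mice each from day 0 of the same model, with the same host strain. Total RNA of each pool was read by real-time PCR on 8 chips, with 2 sample wells per pool on every chip, and each sample well supplied all assays of its chip. The sex and age of the mice are not given in the labels, and values within a pool cannot be traced to a mouse.

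miR-221 and miR-222 are cut from hairpins of the same primary transcript on the X chromosome and are usually described together. Both are known to repress the cell cycle inhibitor p27Kip1 (Cdkn1b) and the receptor Kit. Through these targets they favour proliferation of vascular smooth muscle cells and restrain angiogenic responses of endothelial cells. In human rheumatoid arthritis and in mice carrying a human TNF transgene they have been described as raised in synovial fibroblasts.

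The mature 3′ arms, which the assay names denote, are shown because they share the seed and differ after it. They run 5′ to 3′ as listed by RefSeq on GRCm38.p6, with capitals for the seed, bases 2 to 8.
mmu-miR-221-3p: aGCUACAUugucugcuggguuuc
mmu-miR-222-3p: aGCUACAUcuggcuacugggucu

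Both arms are 23 bases long and are identical over their first 8 bases. Of the 15 positions after this shared start 3 hold the same base, which makes 11 identical positions of 23. A second shared stretch, CUGGGU, covers bases 15 to 20 of miR-221 and begins at base 16 of miR-222, so it is shifted by a single position. The seed occurs in 3 of 1679 mature mouse miRNAs of the RefSeq table, and the remaining one is miR-1928, whose short mature form is mmu-miR-1928: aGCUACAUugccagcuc.

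The hairpins are shown because they place both arms in the same stretch of the genome. They lie on the minus strand of the X chromosome, Mir221 at chrX:19146294-19146388 and Mir222 at chrX:19146893-19146971, with 504 bases between them. Capitals mark the mature 3′ arm, at chrX:19146307-19146329 for miR-221 and chrX:19146901-19146923 for miR-222.
Mir221 hairpin: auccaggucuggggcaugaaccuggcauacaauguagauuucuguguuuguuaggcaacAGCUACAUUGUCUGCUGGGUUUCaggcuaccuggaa
Mir222 hairpin: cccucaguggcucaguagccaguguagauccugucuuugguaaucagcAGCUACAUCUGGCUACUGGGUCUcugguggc

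The values are threshold cycles (Ct), the PCR cycle at which the signal crosses a set level. A lower Ct means more RNA, and 1 cycle was taken as a doubling. Recorded Cts ran from 2.50 to 26.997, and some wells gave none. Arthritic pools 1 and 2 gave a Ct for 271 and 223 of the 750 miRNA assays, and non-arthritic pools 1 and 2 for 294 and 287. Both assays sat on chip A3 of panel A. There arthritic pool 2 had a second listed sample well that stood apart, with a Ct for 24 of 96 assays against 36 in its first well. For the 24 assays with a Ct in both, the second well read a median of 4.57 cycles later (range 0.469 to 7.84). In the other 3 pools this median lay between -0.335 and 0.798 cycles on that chip. Values of chip A3, marker sums among them, include that well unless stated otherwise. The log2 changes of miR-221 and miR-222 relative to their panel, and the difference of both, are also given without it.

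In arthritic pool 1 miR-221 had a Ct of 10.6 in the first listed well and 10.2 in the second. In arthritic pool 2 its Cts were 12.7 and 16.7, the second of these from the well that stood apart. In the non-arthritic pools its Cts were 12.9 and 13.9 for pool 1 and 12.6 and 13.9 for pool 2. The lowest miR-221 Cts were thus those of arthritic pool 1, while arthritic pool 2 held a value inside the non-arthritic range and another above it. The wells of arthritic pool 2 differed by 4.06 cycles for miR-221, against 0.433 in arthritic pool 1 and 1.04 and 1.33 in non-arthritic pools 1 and 2. This gap was close to the chip's own median gap in that pool, 4.57 cycles.

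miR-222 read very differently in the same wells. In arthritic pool 1 its Cts were 17.7 and 16.4. In arthritic pool 2 it had a Ct of 22.1 in the first well and none in the second, so a single well stands for that pool. In the non-arthritic pools its Cts were 10.3 and 9.87 for pool 1 and 11.04 and 9.09 for pool 2. Every arthritic well with a Ct read later than every non-arthritic well. The raw Cts of the groups did not overlap, which held for 61.7% of the 209 assays with a Ct in all 4 pools and is read as no result about miR-222.

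**Figure D1:**
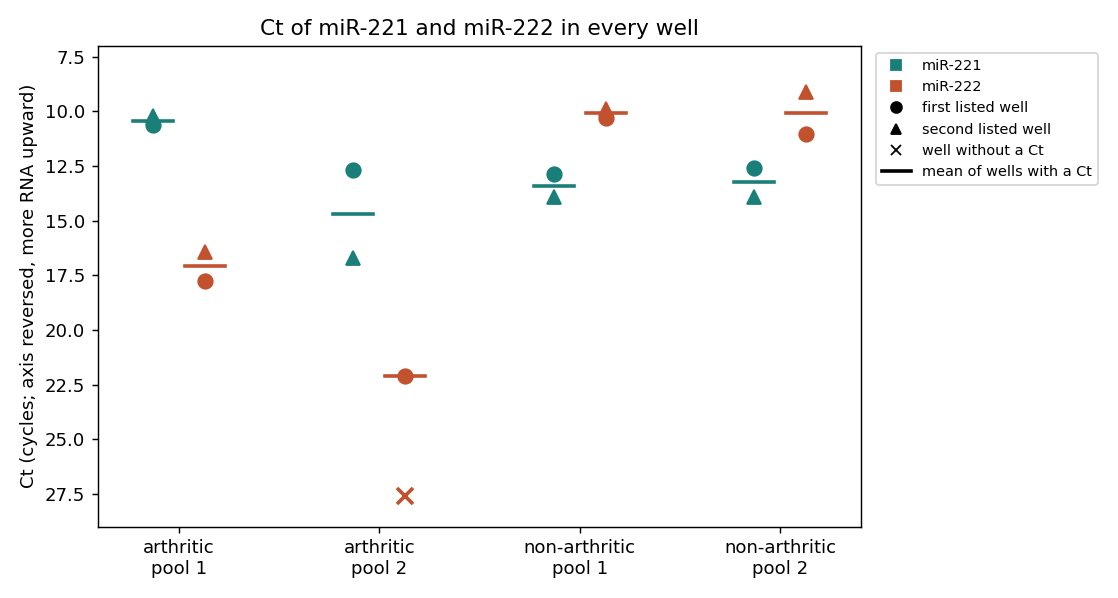
Ct of miR-221 and miR-222 (y axis, cycles, reversed so that more RNA is higher) in every sample well of the 2 arthritic and 2 non-arthritic pools (x axis). Circles are first listed wells, triangles second ones, bars the mean of wells with a Ct, and the cross a well without a Ct, drawn below the scale of recorded values. miR-222 lies between 16.4 and 22.1 in arthritic pools and between 9.09 and 11.04 in non-arthritic pools, while the miR-221 wells of both groups share a range.

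The closest comparison the chip allows is between both assays in the same sample well, because they then share the RNA, the reverse transcription and the load of that well. The sources used here do not state how efficiently each assay amplifies. The Ct difference of a single well therefore also holds any difference between the assays, whereas its comparison between groups does not as long as that difference is the same in every pool. In arthritic pool 1 the Ct of miR-222 lay 7.12 cycles above that of miR-221 in the first well and 6.24 above it in the second. In arthritic pool 2 it lay 9.43 cycles above it in the single well with both. In the non-arthritic pools the sign was turned. There the Ct of miR-222 minus that of miR-221 was -2.58 and -4.04 cycles in pool 1 and -1.53 and -4.81 cycles in pool 2. The sign was thus the same in all 3 arthritic wells with both Cts and the opposite in all 4 non-arthritic wells.

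Taken as doublings per cycle within sample wells, miR-221 read 102-fold above miR-222 in arthritic pool 1 and 688-fold above it in the single usable well of arthritic pool 2. From the mean Cts of arthritic pool 2, in which the doubted well enters for miR-221 only, the ratio was 169-fold. miR-222 read 9.93-fold above miR-221 in non-arthritic pool 1 and 8.98-fold above it in non-arthritic pool 2. From the mean Cts of each pool, the difference of miR-222 minus miR-221 was 7.04 ± 0.508 cycles in arthritic pools and -3.24 ± 0.103 cycles in non-arthritic pools (SD, n = 2 pools each). The groups differed by 10.3 cycles, a 1242-fold change of the ratio. Where only wells with both Cts were used, the arthritic mean was 8.05 ± 1.94 cycles and the groups differed by 11.3 cycles. No reference enters this difference. Expressed as the log2 change of miR-222 minus that of miR-221, it stayed between -12.67 and -9.92 over the choices of well, reference and pools left out that gave it a value.

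**Figure D2:**
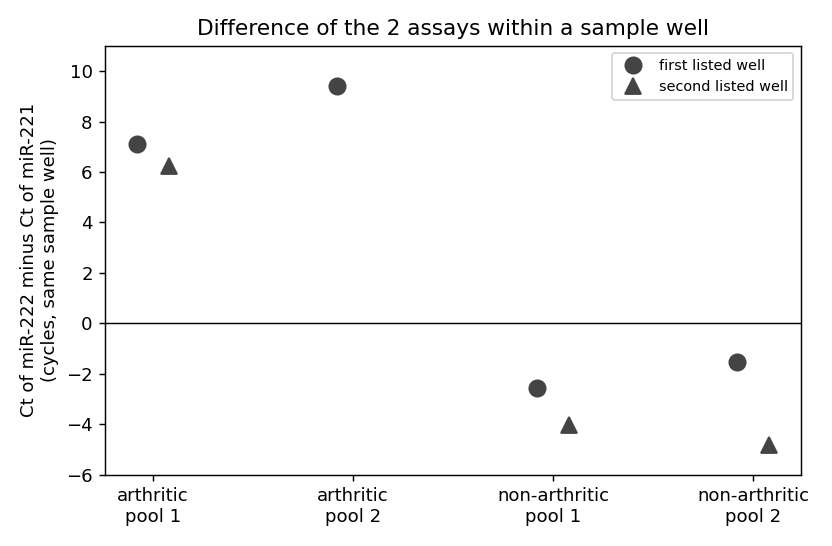
Ct of miR-222 minus Ct of miR-221 in the same sample well (y axis, cycles) for the 2 arthritic and 2 non-arthritic pools (x axis), with circles for first and triangles for second listed wells. Arthritic values run from 6.24 to 9.43 and non-arthritic values from -4.81 to -1.53, and 1 arthritic well has no value because miR-222 gave no Ct.

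To set each miRNA against the rest of its pool, its level was taken as the median Ct of the 134 miRNA assays of panel A that had a Ct in all 4 pools, minus its own Ct. A level of 0 is the panel's median and each unit is a factor of 2. That median was 12.5 and 15.9 cycles in arthritic pools 1 and 2, and 12.6 and 12.8 cycles in non-arthritic pools 1 and 2. The level of miR-221 was 2.13 and 1.21 in the arthritic pools, and non-arthritic pools had -0.76 and -0.42. miR-221 thus lay above the panel's median in both arthritic pools and below it in both non-arthritic pools. The mean level was 1.67 ± 0.65 in arthritic pools and -0.59 ± 0.24 in non-arthritic pools (SD, n = 2), a log2 change of 2.25 ± 0.77 (SE), or 4.77-fold. By Ct it was assay number 43 and 52 of the 134 in the arthritic pools, counted from the most abundant, against 80 and 76 in the non-arthritic pools, an order that also depends on how well each assay amplifies.

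The level of miR-222 was -4.55 and -6.19 in the arthritic pools, with 2.55 and 2.75 in non-arthritic ones. It was assay number 105 and 114 of 134 in the arthritic pools and number 37 and 41 in the non-arthritic pools. The mean level was -5.37 ± 1.16 in arthritic pools and 2.65 ± 0.14 in non-arthritic pools (SD, n = 2), a log2 change of -8.02 ± 0.86 (SE), so that the non-arthritic level was 260.5-fold the arthritic one. In pooled tissue, fewer cells that hold a miRNA and less of it per cell cannot be told apart. Within non-arthritic pools miR-222 read above miR-221, and within arthritic pools miR-221 read above miR-222, by level as by Ct.

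These values stand among large changes throughout the table. Of 209 assays with a Ct in all 4 pools, 45 passed the test between the groups, or 21.5%, with 20 higher (9.57%) and 25 lower (12%) in arthritic pools by limma at a Benjamini-Hochberg adjusted p of 0.05. With non-arthritic pool 1 or pool 2 left out, no assay passed in limma, and 42 and 25 assays had an unadjusted p under 0.05. miR-222 was among the assays that were lower and miR-221 was not among those called, but as the contrast chose them, nothing is read from either. Levels of the groups did not overlap for 149 assays, or 71.3%, which included both miRNAs, and raw Cts did not overlap for 129, or 61.7%, which included miR-222 alone. Over the 209 assays the log2 change had a median of 0.19, an interquartile range from -2.03 to 1.93 and a full range from -11.78 to 7.85. The change of miR-222 was the second lowest of these and that of miR-221 the 43rd highest. The median gap per assay was 1.38 log2 units between the arthritic pools and 0.52 between the non-arthritic pools.

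**Figure D3:**
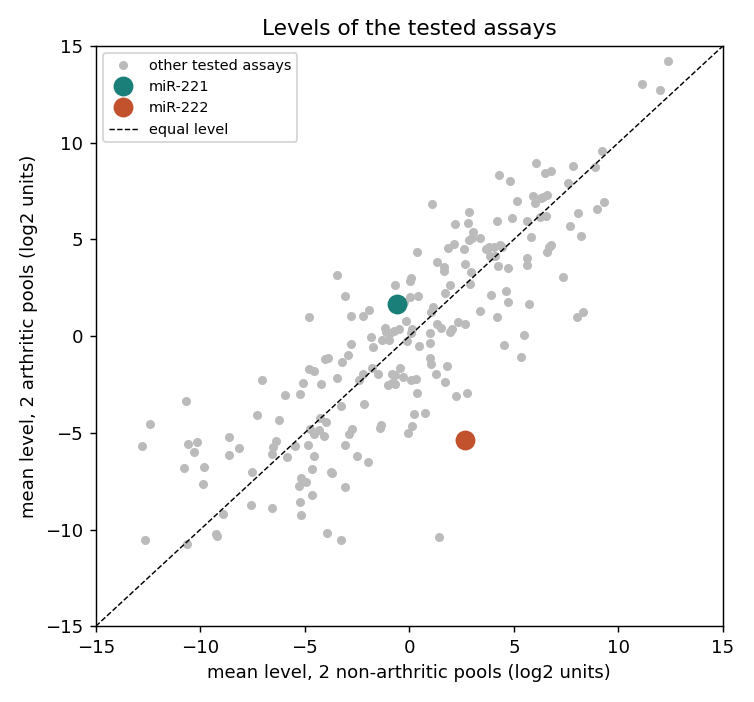
Mean level of the 209 tested assays in the 2 arthritic pools (y axis) against the 2 non-arthritic pools (x axis), in log2 units relative to the panel's median, with equal levels on the dashed line. miR-221 lies above the line at 1.67 in arthritic and -0.59 in non-arthritic pools, and miR-222 far below it at -5.37 and 2.65.

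The direction of miR-221 differed between references and that of miR-222 did not, with the doubted well of arthritic pool 2 included in each. Against the panel's mean the log2 changes were 2.14 for miR-221 and -8.13 for miR-222, and against the median of chip A3 they were 3.11 and -7.17. Without any reference they were 0.76 and -9.52. Against U6, a small nuclear RNA often used as a control, they were -0.60 for miR-221 and -10.88 for miR-222, and against snoRNA135 and snoRNA202, small nucleolar RNAs, they were -0.43 and -10.71. With all 3 control RNAs together they were -0.49 and -10.77.

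With the doubted well included, the miR-221 pools overlapped between groups under raw Ct and under each control reference. Against U6, for example, its levels were -4.64 and -9.03 in arthritic pools and -5.79 and -6.67 in non-arthritic pools. Without that well the raw Cts of miR-221 were 10.4 and 12.7 in arthritic pools. They did not overlap the 13.4 and 13.2 of non-arthritic pools. miR-222 pools did not overlap under any of the 7 scales, and against U6 its levels were -11.32 and -16.43 in arthritic pools, against -2.48 and -3.51 in non-arthritic pools. Among all tested assays 71.3% did not overlap with the panel's median and 61.7% with raw Ct. That share was not counted for the other scales, so the lack of overlap is read as no result about either miRNA. The control scales also moved the median change of all 209 assays, to -2.51 with U6, -1.91 with the small nucleolar RNAs and -2.17 with all of them.

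The control RNAs did not move together. On panel A the Ct of U6 was 1.36 cycles lower and that of snoRNA135 3.12 cycles lower in arthritic pools, while that of snoRNA202 was 0.735 cycles higher. They were read on chip A2, so they carry none of the well effect of chip A3. With the well of arthritic pool 2 that stood apart left out, the log2 change against the panel's median was 2.997 for miR-221 and -8.30 for miR-222. In that well miR-221 had a Ct of 16.7, against 12.7 in the pool's first well. miR-222 had no Ct in that well, so leaving it out does not alter its changes against the control RNAs, -10.88, -10.71 and -10.77. The log2 change of miR-222 minus that of miR-221 is then -11.29, below each of these 3 values. Without the doubted well the change of miR-221 is therefore above 0 on each control scale.

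**Figure D4:**
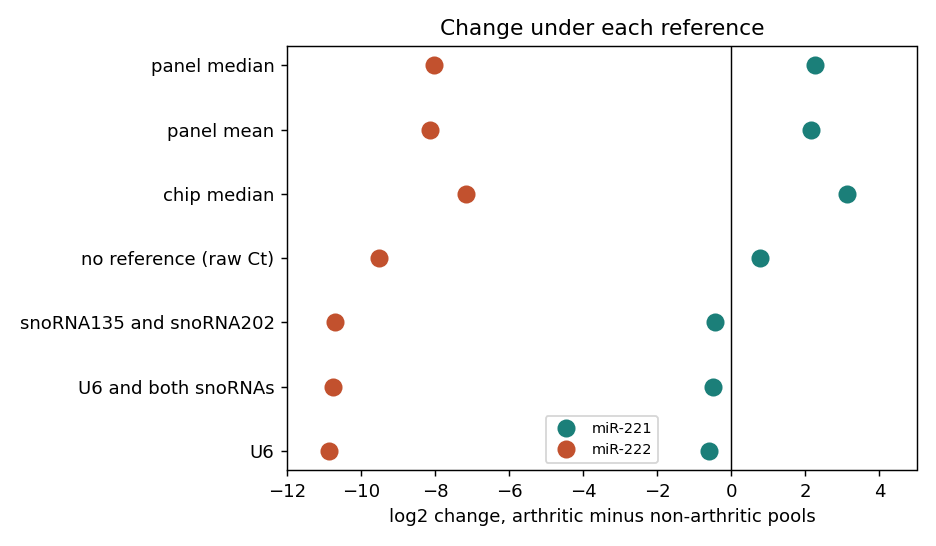
Log2 change, arthritic minus non-arthritic pools (x axis), of miR-221 and miR-222 under the panel median and 6 other scales (rows). With the doubted well included, miR-221 lies between -0.60 and 3.11, on both sides of 0, and miR-222 between -10.88 and -7.17.

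In the authors' deposited table, miR-222 had a day 10 average of 6.73 and a non-arthritic average of 14.9, with a difference of -8.13 on the log2 scale. For miR-221 the authors' deposited table gave 13.3 on day 10 and 10.3 in non-arthritic synovium, a difference of 3.005 or 8.03-fold. By that difference miR-222 was the fourth lowest and miR-221 the 15th highest of 174 rows in the authors' deposited table. The sources used here do not state how those values were normalized.

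Pairs of miRNAs from the same stretch of the genome gave a scale for how far such partners differ. Among tested mouse-named assays, 53 pairs were found with hairpin genes within 10 kb of each other on the same strand, 61 pairs with a shared seed, and 11 pairs with both. Of the 175 such assays, 134 could be given a hairpin position and 103 a seed, so these sets do not hold every such pair. The log2 changes of miR-221 and miR-222 differed by 10.28, the largest difference in each of these sets. Among the other 52 neighbouring pairs the difference ran from 0.04 to 9.68, with a median of 2.60, and the changes had opposite signs in 22. The 60 other pairs with a shared seed had a median difference of 2.50, with opposite signs in 31. As the members were picked for this difference, its rank is a description.

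The neighbouring pair next in order also shared a seed and chip A3. miR-15b and miR-16, which both restrain the cell cycle, had log2 changes of 3.25 ± 0.92 and -6.43 ± 0.98 (SE), which differed by 9.68. miR-16 fell (limma adjusted p = 0.0122), while miR-15b missed the threshold (limma adjusted p = 0.0558). miR-16 also has a copy at another locus, so its signal cannot be given to this stretch alone. With the doubted well of arthritic pool 2 left out the difference was 8.66 for this pair and 11.29 for miR-221 and miR-222, again the largest 2 of the neighbouring pairs.

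The further pairs found with a shared seed and locus differed by 0.26 to 6.77. let-7d and let-7f differed by 6.77, miR-30c and miR-30e by 5.28, miR-29a and miR-29b by 4.89, miR-106b and miR-93 by 4.87 and miR-19a and miR-19b by 3.09. miR-29b and miR-29c differed by 2.10, miR-132 and miR-212 by 1.65, let-7b and let-7c by 0.53 and miR-106a and miR-20b by 0.26. Among neighbours with different seeds, miR-127 and miR-136 differed by 8.31. The closest neighbours were miR-24 and miR-27a at 0.04, miR-409-3p and miR-485-3p at 0.05, miR-193b and miR-365 at 0.11 and miR-382 and miR-410 at 0.12. Several of these miRNAs, miR-29b, miR-19b, let-7c and miR-24 among them, had neighbours at separate loci. Like that of miR-16, their signal cannot be given to a single stretch, which limits such pairs as a scale.

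**Figure D5:**
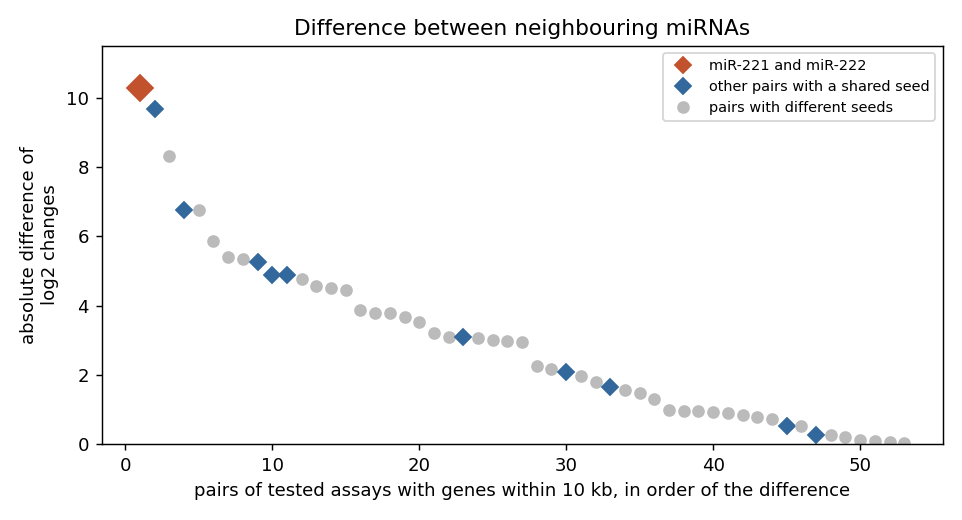
Absolute difference of the log2 changes (y axis) of each of the 53 pairs of tested assays with genes within 10 kb (x axis, in order of the difference). Diamonds are the 11 pairs that also share a seed. miR-221 and miR-222 lie at 10.28 and miR-15b and miR-16 at 9.68.

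miR-1928, named because it is the third miRNA with the seed and after its values were seen, was read on chip B2 of panel B. Its level was -2.67 and -2.22 in arthritic pools, against -2.80 and 1.18 in non-arthritic pools, so the groups overlapped. The change of -1.64 ± 1.36 on the log2 scale (SE) missed the threshold (limma adjusted p = 0.372).

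The tested miRNAs most like each member were those with the smallest distance between their levels over the 4 pools, after each miRNA's own mean was taken off. For miR-221 they were miR-152, also on chip A3, at a distance of 0.32, hsa-miR-214, a human-named assay, at 0.56, miR-382 at 0.61 and let-7i at 0.63. Their log2 changes were 2.10, 1.93, 1.96 and 1.72, and none passed the test. With the doubted well included, each of these 4, like miR-221, turned to a change below 0 under at least 1 of the other scales. On the same measure miR-222 was number 207 in order of likeness to miR-221.

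For miR-222 the nearest profiles were miR-133a at a distance of 1.21, hsa-miR-30a-3p, a human-named assay, at 1.68, miR-16 at 1.69 and miR-186 at 1.73. All 4 fell. The log2 change was -7.07 ± 0.78 (SE) for miR-133a, a muscle miRNA, and -7.26 ± 0.74 (SE) for miR-186, each with a limma adjusted p of 0.00421. They stayed below 0 under each of the 6 other scales. The arthritic levels of miR-186, -10.77 and -10.31, lay far below the panel's median. miR-133a and miR-16 share chip A3 with miR-222, and without the well that stood apart their log2 changes were -5.74 and -4.78.

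Of the miRNAs of the vessel wall, where miR-221 and miR-222 are best known, 13 others were tested, and 1 rose and 2 fell, a share close to the 21.5% of all tested assays. Their median log2 change was 0.28, beside 0.19 for all tested assays. miR-296-5p, described in the endothelium of growing vessels, rose by 7.85 ± 0.75 on the log2 scale (SE, limma adjusted p = 0.00421), the highest change of the table. Its non-arthritic Cts of 25.2 and 25.02 lay near the highest recorded Ct, 26.997, so the size of this change is imprecise. miR-143, of smooth muscle, fell, its change on the log2 scale being -4.12 ± 1.0004 (SE, limma adjusted p = 0.0373). The human-named assay hsa-miR-143, in neither this list nor the markers, had a smaller change of -2.06 ± 0.75 (SE) and missed the threshold. miR-23b, of a cluster active in endothelium, fell with -3.33 ± 0.74 (SE, limma adjusted p = 0.0307). For the endothelial miR-126-3p the change of -2.38 missed the threshold (limma adjusted p = 0.0686). miR-296-5p, miR-143, miR-23b and miR-126-3p kept their direction under each of the 6 other scales. The list's median turned to between -2.57 and -1.21 with raw Ct or the control RNAs. With U6 or the small nucleolar RNAs the list held 1 higher and 6 lower calls.

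Through p27Kip1, miR-221 and miR-222 act on the step from G1 to S phase. Of 5 tested miRNAs that target another inhibitor, p21, 2 rose, beside 9.57% of all tested assays, with a list median of 0.85. With U6, the small nucleolar RNAs, all 3 controls or raw Ct none of the 5 passed in limma in either direction, and 1 to 3 of them had an unadjusted p under 0.05. miR-106b rose by 5.73 ± 0.97 on the log2 scale (SE, limma adjusted p = 0.0153) and miR-20a by 4.05 ± 0.75 (SE, limma adjusted p = 0.02). Of 15 tested miRNAs that restrain this step 2 rose and 1 fell, a share close to the 21.5% of all tested assays, with a list median of 1.72. With U6 as the reference 0 were higher and 2 lower in limma, with 1 higher at an unadjusted p under 0.05. Against the small nucleolar RNAs, 1 was higher and 3 were lower. let-7f rose by 6.66 ± 0.99 (SE, limma adjusted p = 0.0122) and miR-34c by 4.75 ± 1.06 (SE, limma adjusted p = 0.0307), while miR-16 fell as given above. Of the 6 other scales, let-7f passed under 3, miR-34c under 1 and miR-16 under 4. Neither miR-24 nor miR-181a, at 0.33 and 2.43, passed. With U6 as the reference the medians of the p21 and the restraining list were -2.001 and -1.13.

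Of 8 tested miRNAs known to respond to inflammatory signals, 2 fell and none rose in limma, a share close to the 21.5% of all tested assays. At an unadjusted p under 0.05, 3 were higher. The list had a median of 0.85, which turned to -2.01 with U6. miR-146a, an inhibitor of Toll-like receptor signalling, fell, with -4.30 ± 0.79 on the log2 scale (SE, limma adjusted p = 0.02), and its close relative miR-146b with -4.08 ± 0.80 (SE, limma adjusted p = 0.0234). The rat-named assay rno-miR-146B, not in the list, had a smaller change of -1.61 ± 0.83 (SE) and missed the threshold. On the X chromosome 16 other mouse-named assays were tested, of which 2 rose and 2 fell, again close to 21.5%, with a median of -0.12. With U6 0 were higher and 4 lower in limma, with 1 higher at an unadjusted p under 0.05 and a median of -2.84. let-7f passed under 3 and miR-652 under 1 of the 6 other scales. let-7f and miR-652 rose, by 6.66 and 5.13 ± 1.12 (SE, limma adjusted p = 0.0301). miR-384-5p and miR-676 fell, with -5.32 ± 0.74 (SE, limma adjusted p = 0.0122) and -3.30 ± 0.75 (SE, limma adjusted p = 0.0307). let-7f also has a copy on another chromosome, so its signal cannot be given to the X chromosome alone.

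Cell type markers are given as a description. Summed over linear levels, with the panel's median as 1 and undetected assays at 0, the 4 skeletal muscle miRNAs came to 127.6 and 71.96 in arthritic pools, against 539.3 and 1254 in non-arthritic pools. Of them miR-1 and miR-133b gave no Ct in arthritic pools. Most of the arthritic sums came from the human-named hsa-miR-206, at 6.96 and 6.13 log2 units, beside 1.64 and 0.87 for miR-133a. hsa-miR-206 was set against the median of panel B, and its own change missed the threshold (limma adjusted p = 0.0931). The 2 endothelial markers came to 102.5 and 148.1 in arthritic pools, against 554.7 and 729.8 in non-arthritic pools, and the 2 smooth muscle markers to 13.8 and 43.6, against 93.6 and 120.8. These sums, like the level of miR-222, were lower in both arthritic pools, without overlap. Levels of the groups did not overlap for 71.3% of the 209 tested assays. Non-overlap of these sums and of those below is therefore read as no result.

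The sum of the 4 fibroblast and mesenchyme markers was 100.8 and 74.9 in arthritic pools, against 28.4 and 16.2 in non-arthritic pools, and that of the 2 myeloid markers 41.04 and 108.3, against 20.4 and 16.9. These sums were higher in both arthritic pools, as was the level of miR-221. The fibroblast markers differed among themselves, and none of the 3 that were tested passed in limma. miR-214 and miR-199b had log2 changes of 2.32 and 1.68, whereas that of miR-199a-3p was -0.69, with levels of 2.42 and -1.13 in arthritic pools, against 1.46 and 1.21 in non-arthritic pools. With the doubted well of chip A3 left out, the change of miR-199a-3p was 0.21, so its sign rests on that well. The median change of the 3 tested fibroblast markers, 1.68, turned to -0.54 with U6, -0.37 with the small nucleolar RNAs, -0.42 with all 3 controls and -0.19 with raw Ct. The median change of the myeloid markers was 2.80, and with U6 it was -0.057. The lymphoid marker miR-150 came to 39.2 and 65.8 in arthritic pools, against 147.2 and 278.2 in non-arthritic pools. The 2 cartilage markers came to 0.402 and 0.138 in arthritic pools, against 0.682 and 0.585 in non-arthritic pools. This sum was lower in both arthritic pools, without overlap, while the median log2 change of its members was 0.07. The 2 erythroid markers came to 1.97 and 0.653 in arthritic pools, against 1.76 and 3.04 in non-arthritic pools, which overlapped. The part of any cell type in the values of miR-221 and miR-222 was not tested.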

How the data were processed

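The members and lists were chosen with earlier results of these data known. The authors deposited raw Ct values, a machine score per well with no normalization, per the file headers, from BioMark chips. Per the labels' protocols, 500 ng of total RNA per sample, isolated with a mirVana kit, was reverse transcribed with a TaqMan kit. The sources used here do not state thresholds or quality settings. The authors also deposited log2 group averages and their fold (ratio), with no normalization stated.

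Wells of a pool were averaged where both had a Ct under 35. Levels were the panel's median Ct minus the assay's Ct, over 209 assays with a Ct in all 4 pools, with control RNAs left out. The group difference was fitted by limma 3.58.1 (lmFit, eBayes, R 4.3.3), two-sided and without pairing, with Benjamini-Hochberg adjustment over all 209 assays. With 2 pools per group an exact permutation test could not go below p = 0.333, so calls rest on limma's shared spread (prior SD 0.874, 4.02 degrees of freedom). P-values measure the spread between these pools of unequal size. Named were both members, their 4 nearest profiles, the 4 most and 4 least different neighbouring pairs, every pair found with a shared seed and locus, up to 4 list members that passed, the controls and the markers. Pairs came from RefSeq tables of GRCm38.p6, in which 148 of 175 mouse-named tested assays had a gene, 134 a hairpin position and 103 a seed. Figures used matplotlib 3.10.9 in Python 3.11.15. Alternatives were other references, choices of well, Ct limits, filters, an ordinary linear model, the pool number as a block, and pools left out in turn.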

Additional observations from a re-analysis of the deposited data

How the results depend on the processing

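The log2 change of miR-221 was -0.60 with U6, -0.43 with snoRNA135 and snoRNA202 and -0.49 with all 3, each with the doubted well included. Without that well it is above 0 on each of these 3 scales, as given above. It was 0.76 with raw Ct, 3.11 with the median per chip, 1.53 from the second listed wells alone and 2.997 without the chip A3 well of arthritic pool 2 that stood apart. That of miR-222 was -10.88, -10.71 and -10.77 with these control references, -9.52 with raw Ct and -7.17 with the median per chip. The difference of both, -10.28, did not depend on the reference. It was -11.07 with the lower Ct of the wells, and -11.29 both within listed wells, a choice added after seeing the data, and without the doubted well. Leaving out each pool in turn gave 1.84 to 3.24 for miR-221, -8.80 to -6.67 for miR-222 and -10.64 to -9.92 for the difference, or -12.67 to -9.92 within listed wells, where leaving out non-arthritic pool 1 or 2 gave -11.22 and -11.37. The highest value of each miRNA was that without arthritic pool 2. miR-222, and so the difference, had no value from the second listed wells or where both wells had to have a Ct, because 1 arthritic well gave none.

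Beside the 20 higher and 25 lower calls with the panel median, each other scale made its own calls, whose overlap was not counted. The panel mean gave 12 higher and 13 lower, U6 1 and 54, the small nucleolar RNAs 4 and 54, all 3 controls 3 and 47, and raw Ct 0 and 8 in limma, with 65 at an unadjusted p under 0.05 in all. First listed wells gave 6 and 15, a Ct limit of 24 gave 17 and 16, and no filter gave 7 higher. An ordinary linear model called 0 in either direction, with 55 at an unadjusted p under 0.05, beside 45 calls by limma. Leaving out each pool in turn gave 0 to 65 higher and 0 to 56 lower. The causes of these shifts were not tested. With the replicate block 32 rose and 34 fell. The differences between pools 1 and 2 of each group correlated with r = 0.0738 over 209 assays. Whether pools of the same number shared more than that number was not tested. That block has no bearing on the values of miR-221 and miR-222, which stay the same under it.

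Limits remain for the members. There are 2 pools per group, and the pools differ in the number of mice. miR-222 rests on a single well in arthritic pool 2. Depth in the sense of reads does not apply, and Cts near the highest recorded one are least precise.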
